A study of Mus musculus with 2 samples.

Results

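The cells described here are Flt3+ early thymic progenitors of the mouse that were outside mitosis, compared between an HSA+ sort and an HSA- sort. They numbered 1285, of which 444 came from the HSA+ sort and 841 from the HSA- sort, out of 2594 cells assigned to these sorts, 7948 assigned cells and 8293 barcodes in the library. The members were chosen by measured values. A cell had to hold at least 3000 UMIs (unique molecular identifiers, each standing for 1 captured transcript), with under 0.05% of them from 10 genes of mitosis and late replication (Mki67, Top2a, Cdk1, Ccnb1, Ccnb2, Ccna2, Ube2c, Birc5, Nusap1 and Cenpf). It also had to show fewer than 3 of the 6 granulocyte genes Mpo, Elane, Prtn3, Ctsg, Ms4a3 and Cebpe. The levels of these 16 genes are therefore given only as a description. For short, cells under the 0.05% limit are called outside mitosis and the others mitotic. The 10 genes include late replication, and the cycle phase of a cell was not measured.

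RNA was captured from single thymus cells of C57BL/6 mice of the genotype Bcl11byfp/yfp, in which a yellow fluorescent protein reports Bcl11b, a factor needed for commitment to the T lineage. All 5 sorts were negative for lineage markers, took only viable (7AAD-) cells and were Kit+. The 4 progenitor sorts were also CD25- and Bcl11b-. The HSA- sort was gated as Flt3+ Ly6d- HSA-, and the HSA+ sort as Flt3+ HSA+ with no gate on Ly6d. A Flt3- Ly6d- HSA- sort, a Flt3- Ly6d+ sort with no gate on HSA, and a broad Kit+ control sort completed the set. The sorts carried separate antibody hashtags and were pooled into 1 library. The series text says that the populations came from an earlier pseudotime ordering. Each kind of cell was sorted once, so there was no spread between replicates to test against, and each count of genes below is a description by size. The sources used here give neither the number of mice nor their age.

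Progenitors that reach the thymus from the blood arrive with Flt3, a cytokine receptor of early haematopoietic cells, and lose it as Notch signals start the T-cell programme. HSA is the heat stable antigen CD24, a small glycoprotein anchored in the membrane and encoded by Cd24a, which is low on the earliest progenitors and high on dividing immature thymocytes. A division gives a cell a strong programme of S phase and mitotic transcripts, and it also raises the amount of RNA. Setting cells in mitosis aside leaves the part of the HSA difference that is not carried by those cells.

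Stretches of the 250 bases before the RefSeq start of 3 genes whose levels differed between the sorts are shown here: Rbl1 and Brca2, which were higher in HSA+ cells and belong to the G1/S and replication programme, and Ccr9, which had the largest fold of the 10 genes counted as lower in HSA+ cells. They lie at chr2:157204535-157204784 (minus strand), chr5:150522371-150522620 (plus strand) and chr9:123766961-123767210 (plus strand) of GRCm38.p6. Capitals mark matches to any of 7 short motifs searched on both strands. The E2F-type motifs were TTTCGCG and the variant form TTTGGCG. The RUNX-type motif was TGTGGT, the ETS-type motif was GGAAGT, the GATA-type motif was AGATAA, the E-box was CAGCTG and the TCF-type motif was CTTTGA. No motif overlapped another in these windows.
Rbl1: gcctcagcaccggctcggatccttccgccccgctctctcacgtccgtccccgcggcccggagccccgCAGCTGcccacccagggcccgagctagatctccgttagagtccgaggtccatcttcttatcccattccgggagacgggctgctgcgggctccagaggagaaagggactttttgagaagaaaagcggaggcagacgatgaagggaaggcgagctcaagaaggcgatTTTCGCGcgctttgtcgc
Brca2: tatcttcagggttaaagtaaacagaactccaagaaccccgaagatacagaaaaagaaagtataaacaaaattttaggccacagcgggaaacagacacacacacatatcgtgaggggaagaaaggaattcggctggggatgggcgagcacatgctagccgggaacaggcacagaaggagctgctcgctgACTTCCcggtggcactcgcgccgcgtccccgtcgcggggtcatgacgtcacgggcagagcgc
Ccr9: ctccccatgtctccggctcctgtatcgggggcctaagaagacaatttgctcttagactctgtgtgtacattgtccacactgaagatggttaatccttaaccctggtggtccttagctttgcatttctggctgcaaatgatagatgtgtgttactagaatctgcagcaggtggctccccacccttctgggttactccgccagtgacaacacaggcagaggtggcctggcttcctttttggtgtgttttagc
The Rbl1 window held TTTCGCG once, 11 bases before the start, and CAGCTG once, 177 bases before it. The Brca2 window held GGAAGT once, read on the other strand as ACTTCC, 56 bases before the start. The Ccr9 window held none of the 7. Among 32851 promoter windows of the same length, 0.703% held TTTCGCG, 1.26% held TTTGGCG, 14.0% held TGTGGT, 19.7% held GGAAGT, 9.99% held AGATAA, 13% held CAGCTG and 13.8% held CTTTGA. These matches are descriptions of the letters.

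Cells above the mitotic limit were more frequent in the HSA+ sort. They made up 61.4% of its cells with 3000 UMIs or more and 37.9% of those of the HSA- sort. The 3 filters together kept 37.6% of the 1182 assigned HSA+ cells and 59.6% of the 1412 assigned HSA- cells. The granulocyte filter removed 10 HSA+ and 31 HSA- cells, and the UMI minimum 6 and 7. Just inside the limit, between 0.04% and 0.05%, lay 18 HSA+ and 32 HSA- cells, and just outside it, up to 0.06%, 18 and 21. No UMI of the 10 genes was seen in 130 HSA+ cells (29.3%) and 339 HSA- cells (40.3%). The kept cells were not equal in depth or in S phase content. Median UMIs per cell were 14688 in HSA+ and 13020 in HSA- cells, median genes 3667 and 3413, and the median share of UMIs from 31 S phase genes 0.347% and 0.255%. Mitochondrial transcripts took a median of 4.53% and 4.42%. The summed totals were 6740566 and 11534637 UMIs.

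**Figure D1:**
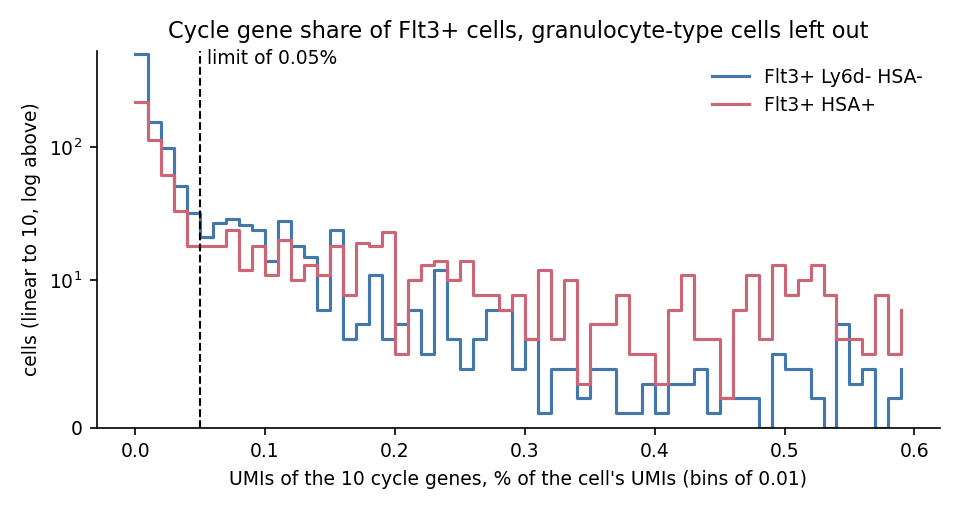
Number of cells (vertical axis, linear to 10 and logarithmic above) by the share of a cell's UMIs from the 10 genes of mitosis and late replication (horizontal axis, percent, drawn to 0.6%) in the HSA+ and HSA- Flt3+ sorts, for cells with 3000 UMIs or more and under 3 granulocyte genes, with the 0.05% limit as a dashed line. At or above the limit are 667 HSA+ and 459 HSA- cells, and of these 100 HSA+ and 44 HSA- cells lie beyond the drawn range.

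Outside mitosis the sorts were nearly alike, as they also were among cells at or above the mitotic limit, given further below. Levels are sums of UMIs over a sort, scaled to a total of 1000000 (CPM). A gene counted as higher or lower from a 1.5-fold ratio upwards, if the sort with more of it had 20 CPM or above and detected it in 5% or more of its cells. Of 5532 genes that met the level and share, 17 were higher in HSA+ cells (0.307%) and 10 were lower (0.181%). At a ratio of 2 the counts were 6 and 0, and 96.5% of the genes lay within 1.25-fold. With all assigned cells, mitotic ones included, 94.8% of 5533 genes lay within 1.25-fold. There, 112 genes were higher (2.02%) and 12 were lower (0.217%). Of those, 8 and 6 were also among the 17 and the 10. The 17 held the rule genes Mpo, at 302 CPM in HSA+ and 196 CPM in HSA- cells, and Ctsg, at 22.4 and 12.5 CPM. Each ratio below has a 95% interval that treats a gene's UMIs as divided binomially between the sorts, and CPM intervals are exact Poisson ones. Both cover counting error only.

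**Figure D2:**
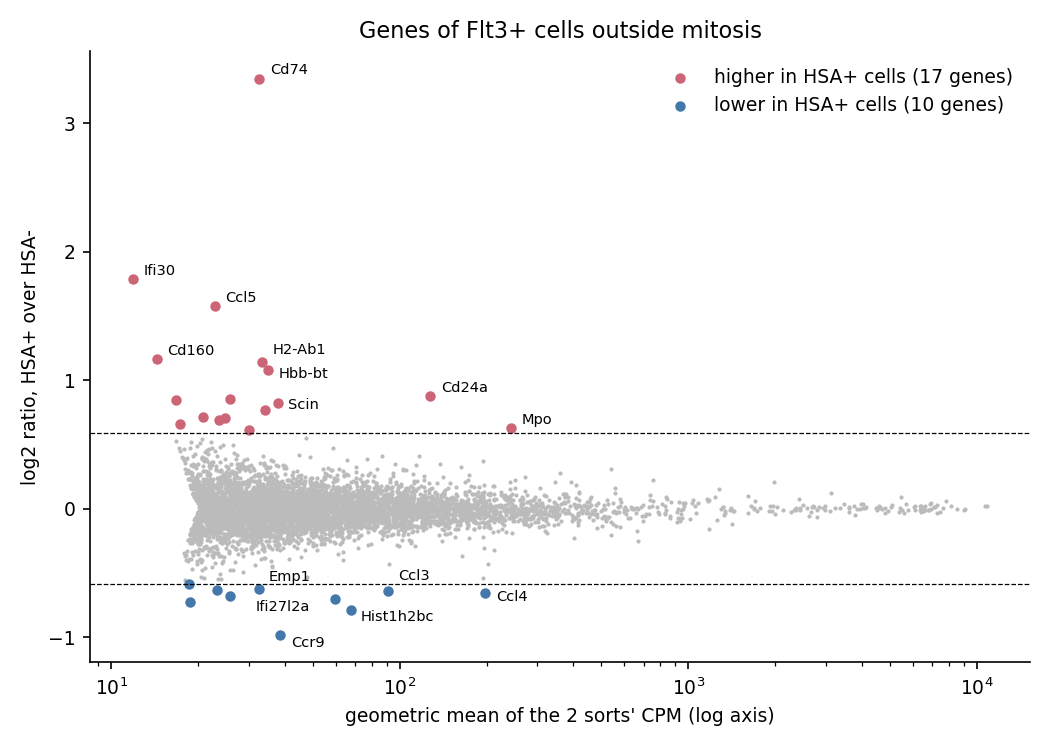
Log2 ratio of HSA+ over HSA- cells outside mitosis (vertical axis) against the geometric mean of both sorts' CPM (horizontal axis, logarithmic), with 1 point per gene that met the level and share. Dashed lines mark 1.5-fold, the 17 red points are higher and the 10 blue points lower in HSA+ cells, and the grey cloud of other genes centres on 0.

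The gate genes come first, since they check the sorts. Cd24a (chr10:43578284-43584265), which encodes HSA, stood at 173 CPM (163 to 183) in HSA+ cells and 94.3 CPM (88.8 to 100.1) in HSA- cells. The Flt3- Ly6d- HSA- cells had 114 CPM of it, the Flt3- Ly6d+ cells 214 CPM and the control 248 CPM. The RNA thus followed the antibody with a ratio of 1.83 (1.69 to 1.99), and the HSA- sort was not free of it. With each cell thinned to 3000 UMIs, 41.7% of HSA+ cells (95% Clopper-Pearson interval 37.0 to 46.4) and 20.2% of HSA- cells (17.5 to 23.1) held a Cd24a UMI. In 143 granulocyte-like cells of the Flt3- Ly6d- HSA- sort, which hold at least 3 of the granulocyte genes, it was 14.7% (9.33 to 21.6). Unthinned shares were 87.8%, 62.1% and 52.4%, at median depths of 14688, 13020 and 23908 UMIs.

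Flt3 RNA was 79.1 CPM (72.5 to 86.1) in HSA+ cells and 107 CPM (101 to 113) in HSA- cells, a ratio of 0.74 (0.67 to 0.82), although both sorts were gated on the protein. It was 28.4, 14.5 and 18.3 CPM in the Flt3- Ly6d- HSA-, Flt3- Ly6d+ and control cells. Kit, the stem cell factor receptor, was 78.6 and 78.5 CPM. Ly6d RNA was 19.0 CPM in HSA+ cells, which were not gated on it, and 26.1 CPM in HSA- cells, against 451 CPM in the Ly6d+ sort. Il2ra, which encodes CD25, was 2.67 CPM (1.58 to 4.22) in HSA+ cells and 0.69 CPM (0.30 to 1.37) in HSA- cells, from 17 and 8 cells. Bcl11b was 0.30 and 0.43 CPM, against 205 CPM in the control.

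Deptor, Scin, Cpa3 and Cd160 were among the genes besides Cd24a whose higher level in HSA+ cells was spread over many cells. In each of these 4, the level in HSA+ cells lay between that of HSA- cells and that of both Flt3- sorts. Cd24a did not have this order, since its level in Flt3- Ly6d- HSA- cells was below that in HSA+ cells. Deptor (chr15:55112317-55259271), an inhibitor of the mTOR kinase, stood at 34.7 CPM in HSA+ and 19.2 CPM in HSA- cells, against 90.7 CPM in Flt3- Ly6d- HSA-, 85.9 CPM in Flt3- Ly6d+ and 76.6 CPM in control cells. Its ratio was 1.80 (1.49 to 2.18), with a UMI in 144 of 444 and 155 of 841 cells.

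Scin (chr12:40059769-40134228), an actin-severing protein, stood at 50.3 CPM in HSA+ and 28.4 CPM in HSA- cells, against 148, 177 and 217 CPM in the Flt3- Ly6d- HSA-, Flt3- Ly6d+ and control cells. Its ratio was 1.77 (1.52 to 2.06). Cpa3 (chr3:20215620-20242181), a carboxypeptidase of mast cell granules that early T-cell precursors also transcribe, stood at 44.7 and 26.2 CPM, against 229, 244 and 399 CPM in the same 3 sorts. Its ratio was 1.71 (1.45 to 2.01). Cd160 (chr3:96798763-96829351), a receptor of NK and T cells, stood at 21.5 and 9.62 CPM, against 52.4, 60.7 and 42.9 CPM, a ratio of 2.24 (1.73 to 2.89). In these genes the counting intervals of HSA- Flt3+ cells, HSA+ Flt3+ cells and either Flt3- sort did not overlap. The genes were picked by their HSA+ over HSA- ratio in these same counts, so the gap between the Flt3+ sorts follows from the choice. How many of all genes have the same order over the sorts is not given here.

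**Figure D3:**
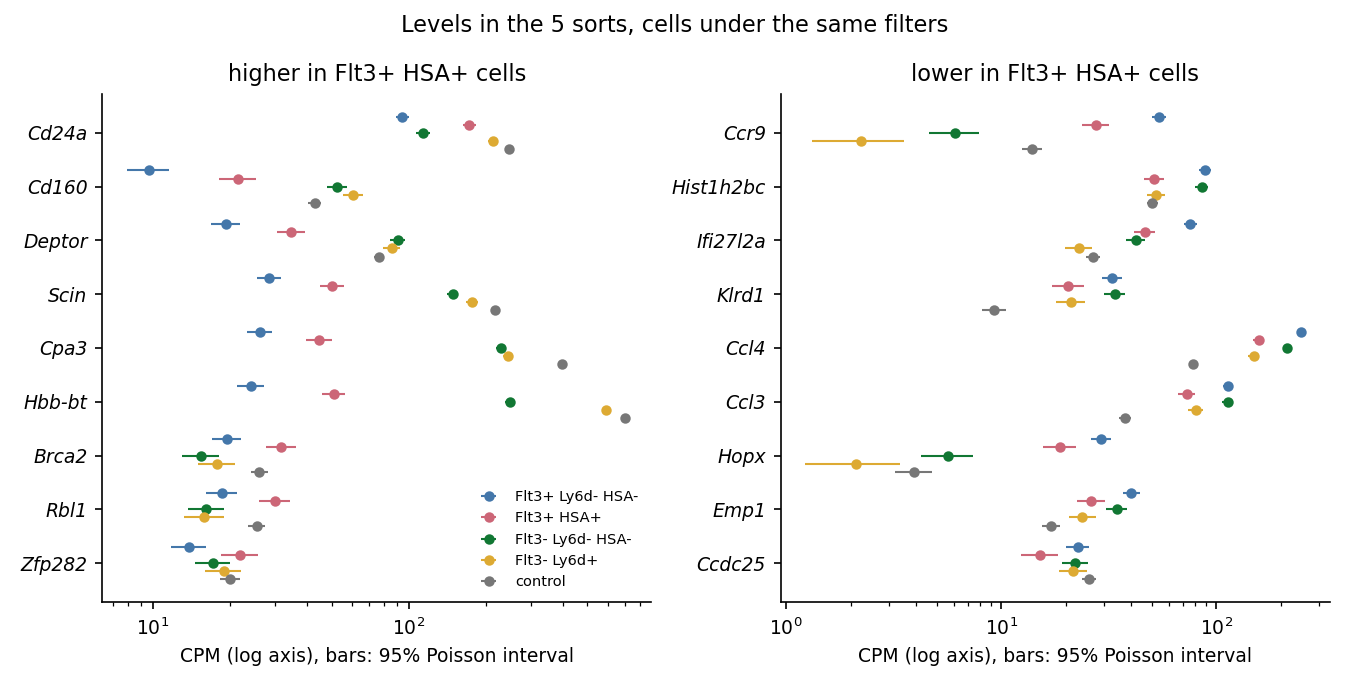
CPM with exact Poisson 95% intervals (horizontal axis, logarithmic) of genes higher (left) and lower (right) in HSA+ cells, in the 5 sorts under the same cell filters. Deptor, Scin, Cpa3 and Cd160 lie lowest in Flt3+ HSA- cells, next in Flt3+ HSA+ cells and higher in both Flt3- sorts, while Ccr9 is highest in Flt3+ HSA- cells at 54.2 CPM and lowest in Flt3- Ly6d+ cells at 2.23 CPM.

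Brca2 and Rbl1 were also higher in HSA+ cells. Brca2 acts in recombination at broken or stalled replication forks, and Rbl1 encodes p107, a pocket protein that binds E2F factors. Brca2 stood at 31.7 CPM in HSA+ and 19.4 CPM in HSA- cells, a ratio of 1.63 (1.35 to 1.98), and Rbl1 at 30.0 and 18.6 CPM, a ratio of 1.62 (1.33 to 1.97). Among cells under the median S phase share of 0.292%, their ratios were 1.09 (0.64 to 1.79) and 1.37 (0.87 to 2.11), and both intervals include 1.

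The remaining genes of the 17 rested on few cells, or are not described one by one. Cd74, the MHC class II invariant chain, stood at 104 CPM in HSA+ and 10.2 CPM in HSA- cells, and 10 HSA+ cells held 95.7% of its UMIs. H2-Ab1, an MHC class II chain, stood at 49.6 and 22.5 CPM, with 60.5% in 10 cells, and Ifi30, a lysosomal thiol reductase of antigen presentation, at 22.1 and 6.42 CPM, with 80.5% in 10 cells. Both H2-Aa and H2-Eb1 were detected in 6 HSA+ and 2 HSA- cells. Without these 8 cells, a setting chosen after seeing the data, the ratios were 1.26 (0.94 to 1.68) for Cd74, 1.01 (0.82 to 1.24) for H2-Ab1 and 0.89 (0.58 to 1.33) for Ifi30.

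Ccl5, a chemokine of T and NK cells, stood at 39.6 and 13.3 CPM, with 88.8% of the HSA+ UMIs in 10 cells. Its ratio was 0.66 (0.47 to 0.90) in cells with 10000 to under 20000 UMIs, the reverse of the pooled 2.99. Hbb-bt, a beta globin whose reads a near-identical copy can share, stood at 50.9 and 24.1 CPM, with 81.6% in 10 cells. It stood at 593 CPM in the Flt3- Ly6d+ sort and 700 CPM in the control of the same library. Whether free RNA had a part in these values was not tested.

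Ccr9 had the largest fold among the 10 genes that the size rule counted as lower in HSA+ cells. Ccr9 (chr9:123678439-123784330 for all its transcripts) encodes the receptor for CCL25, by which progenitors enter and move within the thymus. It stood at 27.4 CPM (23.6 to 31.7) in HSA+ and 54.2 CPM (50.02 to 58.6) in HSA- cells, and at 6.09, 2.23 and 13.9 CPM in the Flt3- Ly6d- HSA-, Flt3- Ly6d+ and control cells. The level in HSA- cells was 1.97-fold (1.67 to 2.34) that in HSA+ cells. After thinning to 3000 UMIs, 5.41% of HSA+ cells (3.49 to 7.94) and 13.6% of HSA- cells (11.3 to 16.1) held a Ccr9 UMI, against 0.70% (0.018 to 3.83) of the granulocyte-like cells. Unthinned, the shares were 18.2%, 34.0% and 1.40%.

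The chemokines Ccl3 and Ccl4, made by many activated lymphoid and myeloid cells, were also lower. Ccl4 stood at 158 CPM in HSA+ and 249 CPM in HSA- cells, and at 214, 149 and 77.8 CPM in the Flt3- Ly6d- HSA-, Flt3- Ly6d+ and control cells. HSA- cells had 1.58-fold (1.47 to 1.69) the HSA+ level. Ccl3 stood at 72.7 and 113 CPM, and at 113, 80.04 and 37.5 CPM, with a fold of 1.56 (1.40 to 1.73). Klrd1, the CD94 chain of NK cell receptors, stood at 20.5 and 32.8 CPM, and at 33.6, 21.1 and 9.26 CPM. In these 3 genes both HSA- sorts lay above the HSA+ and the Flt3- Ly6d+ sort.

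Hopx, a homeodomain protein without DNA binding of its own, stood at 18.7 CPM in HSA+ and 29.0 CPM in HSA- cells, and at 5.66, 2.11 and 3.94 CPM in the other sorts. Ifi27l2a, an interferon-inducible gene, stood at 46.6 and 75.8 CPM, and at 42.3, 23.0 and 26.7 CPM. Emp1, a membrane protein, stood at 26.1 and 40.3 CPM, and Ccdc25 at 15.1 and 22.7 CPM. Hist1h2bc, a histone H2B gene with near-identical copies, stood at 51.3 and 88.9 CPM, and its value is uncertain for that reason. Hopx kept the order of Ccr9 across the 4 progenitor sorts, whereas Emp1, at 34.4 CPM (30.7 to 38.3), and Hist1h2bc, at 85.7 CPM (79.9 to 91.9), had intervals in Flt3- Ly6d- HSA- cells that overlapped those of Flt3+ HSA- cells.

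The direction of most of these differences recurred in cells of different depth and S phase content, while their size often did not reach the rule. The cells were split at 10000 and 20000 UMIs into strata of 162, 595 and 84 HSA- and 50, 335 and 59 HSA+ cells. Of the 17 higher genes, 17, 16 and 17 had a ratio above 1 in the strata from shallow to deep, with Ccl5 below 1 in the middle one, and of the 10 lower genes all 10 were below 1 in each. Cd24a had ratios of 1.87 (1.40 to 2.48), 1.90 (1.72 to 2.10) and 1.64 (1.34 to 1.99). HSA- cells had 4.97, 1.47 and 5.18 times the Ccr9 level of HSA+ cells in the same order, and 2.52, 1.36 and 1.15 times the Ccl4 level, the last with an interval of 0.86 to 1.55. Split at the median S phase share, 15 of the 17 were above 1 in the lower part and 17 in the upper, and all 10 were below 1 in both. Hbb-bt, at 0.71 (0.47 to 1.05), and Ccl5, at 0.59 (0.36 to 0.93), were the 2 below 1. The size rule was met again by 14 of the 17 and 2 of the 10 in the middle depth stratum. Under the median S phase share it was met by 7 of the 17 and 5 of the 10. The strata reuse the cells that chose these genes, so they describe spread within the sorts and are not a repeat. The 17 include the rule genes Mpo and Ctsg, which the granulocyte filter used, and the gate gene Cd24a.

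Cells at or above the mitotic limit came from the same sorts but were not used to pick the genes. There, 96.1% of 5525 genes lay within 1.25-fold. By the size rule 17 were higher (0.308%) and 4 lower (0.0724%) in the 667 HSA+ over the 459 HSA- cells. Leaving out the rule genes and predicted genes, 14 higher and 9 lower genes outside mitosis could be set beside them. The 14 include the gate gene Cd24a. In the mitotic cells 13 of the 14 had a ratio above 1, and 6 reached 1.5-fold, while all 9 of the lower genes were below 1, and 4 reached 1.5-fold. Among all 5532 tested genes 46.6% were above 1. Cd24a had a ratio of 1.72 (1.58 to 1.88), at 128 and 74.2 CPM. Ccr9 was 3.26-fold (2.63 to 4.06) and Hist1h2bc 4.11-fold (3.71 to 4.56) higher in HSA- cells. Ccl5 was the exception, with a ratio of 0.61 (0.34 to 1.12).

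The Flt3- sorts gave a further pair that shares no cells with the Flt3+ pair but comes from the same library. Flt3- Ly6d+ cells, whose sort had no HSA gate, were compared with Flt3- Ly6d- HSA- cells under the same filters, with 689 and 937 cells. Of 5656 genes, 27 were higher in Ly6d+ cells (0.477%) and 36 were lower (0.636%), and 3 and 3 of these were among the 17 and the 10. Cd24a had a ratio of 1.88 (1.74 to 2.03) here. Of the 14 higher genes, Cd24a among them, 12 were above 1, with a median log2 ratio of 0.21. All 9 lower genes were below 1, with a median of -0.67. Over the 5532 genes 54.8% were above 1 and the median was 0.01. Ccr9 was 2.72-fold (1.58 to 4.92), Hopx 2.68-fold (1.53 to 4.94), Klrd1 1.59-fold (1.32 to 1.93) and Ccl4 1.43-fold (1.33 to 1.54) higher in the Ly6d- HSA- cells. Deptor, at 0.95 (0.86 to 1.05), and Rbl1, at 0.99 (0.77 to 1.26), were the 2 of the 14 that were not above 1.

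**Figure D4:**
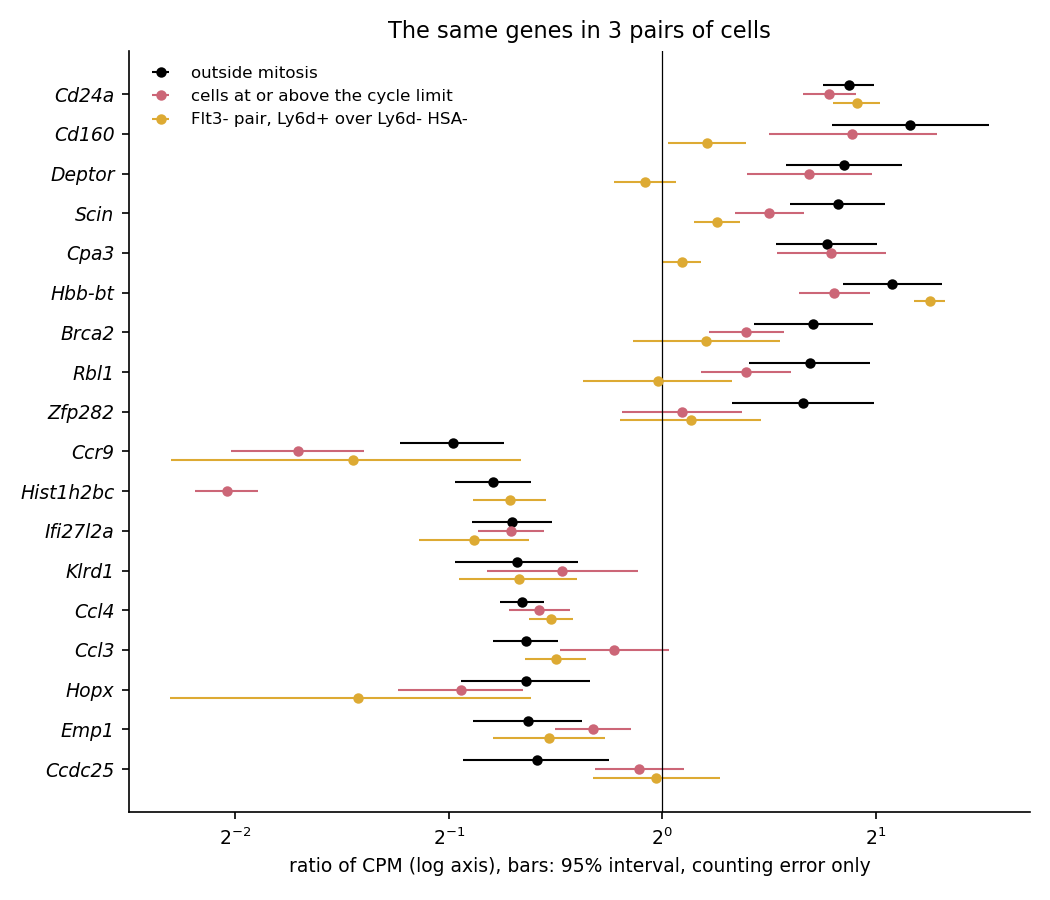
Ratios with 95% counting intervals (horizontal axis, logarithmic) of the named genes in HSA+ over HSA- Flt3+ cells outside mitosis, in the mitotic cells of the same sorts and in Ly6d+ over Ly6d- HSA- cells among Flt3- cells. Cd24a lies at 1.83, 1.72 and 1.88, and Ccr9 lies below 1 in all 3.

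Within a sort, Cd24a RNA did not separate these genes. Each sort was split by whether a cell held a Cd24a UMI among 3000, a setting chosen after seeing the data. This gave 185 and 259 HSA+ cells and 170 and 671 HSA- cells. Of the 17 genes higher in the HSA+ sort, 5 in the HSA+ and 8 in the HSA- sort had a ratio above 1 in the cells with Cd24a, a count that includes Cd24a itself, which the split fixes. The 17 also include the rule genes Mpo and Ctsg. Of the 10 lower genes, 4 and 4 were below 1. Over all tested genes 50.7% in the HSA+ and 51.0% in the HSA- sort were above 1. The median log2 ratios were -0.18 and -0.05 for the 17 and 0.02 and 0.10 for the 10, beside 0.00 for all tested genes in both sorts. A UMI among 3000 is a coarse measure of a gene at these levels, and the surface protein of a single cell was not measured.

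Replication genes were slightly higher in HSA+ cells over all the kept cells. All 31 S phase genes had a ratio above 1 and none reached 1.5-fold. Their median log2 ratio was 0.28, beside -0.01 over the 9130 genes measured at 5 CPM or more in either sort, of which 1.34% were at least 1.5-fold higher and 0.85% lower. Mcm6, a subunit of the replicative helicase, stood at 396 and 326 CPM, with a ratio of 1.21 (1.16 to 1.28). Gmnn, which restrains origin licensing, was at 99.7 and 75.2 CPM, and Pcna, the sliding clamp, at 105 and 97.1 CPM, a ratio of 1.08 (0.98 to 1.19). The list moved with depth. Its median was 0.81 in the shallow stratum, 0.26 in the middle one and -0.01 in the deepest. In cells under the median S phase share it was 0.16, with 26 of 31 above 1. In cells at or above that share it was 0.04, with 11 of 31 below 1. That split uses the same 31 genes, which by itself narrows their difference inside each part. In the 31 HSA+ and 186 HSA- cells with no granulocyte gene, where counting error is wider, the list's median was 0.02. In cells at or above the mitotic limit it was -0.01, with 14 of 31 above 1. With all assigned cells it was 0.13, with 26 of 31 above 1. The rule removed cells by genes of mitosis and late replication, so this list too is linked to the choice of cells. In the Flt3- pair all 31 were above 1, with a median of 0.36, and 4 reached 1.5-fold.

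Of 24 measured genes of G2 and M phase that the rule did not name, 5 were at least 1.5-fold higher and 0 lower, with a median of 0.14. These genes vary with the ones that chose the cells, so they are given as a description. The 5 were Kif20b, at 15.9 and 9.19 CPM, Tpx2, Bub1b, Aurkb and Aurka, all under 20 CPM. With all assigned cells 18 of the 24 were at least 1.5-fold higher, with a median of 0.66. Among 14 D cyclins, kinases and inhibitors Rbl1 alone reached 1.5-fold. Ccnd2 was at 255 and 236 CPM and Cdk6 at 436 and 384 CPM, with ratios of 1.08 (1.02 to 1.15) and 1.13 (1.08 to 1.19). Of 16 quiescence-linked genes 13 were below 1 and none reached 1.5-fold. Of 12 replication-linked histone genes 9 were below 1, 1 by at least 1.5-fold (Hist1h2bc), with a median of -0.24. With all assigned cells the median was 0.62 and 11 of the 12 were above 1, whereas Hist1h2bc had a ratio of 0.37.

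Regulators of early progenitors and of the T lineage differed little outside mitosis. Of 22 stem and progenitor regulators none reached 1.5-fold and 17 were below 1, with a median log2 ratio of -0.11. Spi1, the factor PU.1, stood at 173 CPM in HSA+ and 171 CPM in HSA- cells, and Lyl1, a helix-loop-helix factor, at 128 CPM in both. Lmo2, its partner, had a ratio of 0.84 (0.76 to 0.93), Hoxa9 0.82 (0.74 to 0.91) and Meis1 0.77 (0.63 to 0.95). Of 11 T-lineage regulators 7 were above 1 and none reached 1.5-fold, with a median of 0.12. In the mitotic cells 10 of the 11 were above 1, 3 of them by at least 1.5-fold, with a median of 0.24. In the Flt3- pair 6 of the 11 were above 1, with a median of 0.02. Tcf7, which encodes the Notch-induced factor TCF1, stood at 56.2 and 42.6 CPM, against 164, 232 and 261 CPM in the Flt3- Ly6d- HSA-, Flt3- Ly6d+ and control cells. Its ratio of 1.32 (1.15 to 1.51) was 1.77 (1.52 to 2.08) in the mitotic cells. Thinned shares of cells with a Tcf7 UMI were 14.9% (11.7 to 18.5) and 11.5% (9.45 to 13.9), whose intervals overlap, and 4.90% in the granulocyte-like cells. Unthinned they were 45.3%, 33.9% and 19.6%. Gata3 stood at 20.6 and 21.1 CPM, and Notch1 at 142 and 140 CPM with a ratio of 1.01 (0.94 to 1.10). Hes1, a Notch target, had a ratio of 0.90 (0.83 to 0.97). Dntt, the terminal transferase of receptor recombination, stood at 1122 and 1250 CPM.

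Among 17 homing and cytokine receptors 14 were below 1, and Ccr9 alone reached 1.5-fold. Itga4, an integrin chain, had the highest ratio, 1.26 (1.16 to 1.38), at 128 and 101 CPM, and stood at 230 and 351 CPM in the Flt3- Ly6d- HSA- and Flt3- Ly6d+ cells. Cd44, an adhesion receptor, was at 100.4 and 120 CPM. Il7r was at 18.2 and 21.5 CPM, a ratio of 0.85 (0.68 to 1.06).

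Interferon-response genes were more often lower in HSA+ cells. Of 28 measured, 23 were below 1, 2 by at least 1.5-fold (Ifi27l2a and Ifit3), and the median log2 ratio was -0.17. Of all 9130 measured genes 4699 were below 1, with a median of -0.01. Ly6a, the Sca-1 antigen, stood at 161 and 235 CPM, a ratio of 0.69 (0.64 to 0.74), and at 116, 125 and 98.8 CPM in the Flt3- Ly6d- HSA-, Flt3- Ly6d+ and control cells. Isg15 had a ratio of 0.84 (0.74 to 0.94) and Irf7 0.81 (0.69 to 0.95). Ifit3 was 4.01 and 6.68 CPM, with 96.3% of the HSA+ UMIs in 10 cells. From the shallow to the deepest stratum 22, 15 and 16 of 28 were below 1, with medians of -0.27, -0.01 and -0.12. In cells under the median S phase share 21 of 28 were below 1, with a median of -0.25. In cells at or above that share 13 of 28 were below 1, with a median of 0.01. The median was also 0.01 in the 31 HSA+ and 186 HSA- cells with no granulocyte gene, where counting error is wider. In the mitotic cells 25 of 28 were below 1, and in the Flt3- pair 13.

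Lists for growth and metabolism held few differences. None of 22 Myc-linked growth genes and none of 13 immediate early genes reached 1.5-fold, with medians of 0.06 and -0.08. Myc itself had a ratio of 1.16 (1.05 to 1.27), at 104 and 90.0 CPM. Of 14 glycolysis genes Slc2a3, a glucose transporter, was lower at 9.94 and 15.3 CPM. In the Bcl2 family the 2 members past 1.5-fold were Bcl2a1b and Bcl2a1d, near-identical copies seen in 4 and 5 HSA+ cells and in 1 HSA- cell each.

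**Figure D5:**
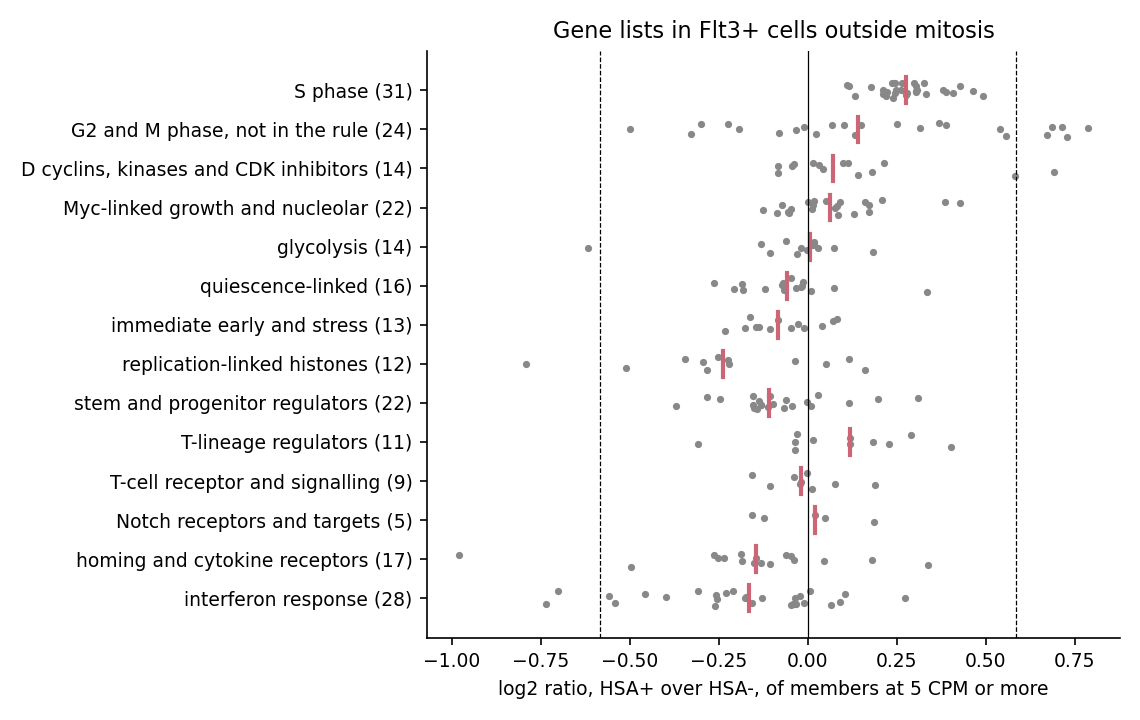
Log2 ratio of HSA+ over HSA- cells outside mitosis (horizontal axis) for each measured member of 14 gene lists (points), with the median of each list as a red bar and dashed lines at 1.5-fold. The S phase list lies wholly above 0 with a median of 0.28, and the interferon-response list is mostly below 0 with a median of -0.17.

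Markers of other cell types were compared by their summed levels. Summed over 24 granulocyte and monocyte markers the level was 533 CPM in HSA+ and 427 CPM in HSA- cells, of which Mpo, a rule gene, made 302 and 196 CPM. Of the 8 measured members of this list 3 were at least 1.5-fold higher (Anxa3 and the rule genes Mpo and Ctsg), while Fcnb, Ngp and Camp were at 0 in both. With all assigned cells the ratios of Mpo and Ctsg were 0.85 and 0.90. Without the cells with both H2-Aa and H2-Eb1 the ratio of Anxa3 was 1.23 (0.59 to 2.51). Summed over 16 dendritic markers it was 734 and 600 CPM, with 4 of 10 measured members higher, all of them MHC class II genes carried by few cells, and Xcr1, Clec9a and Cd209a at 0. Mast cell and basophil markers summed to 64.4 and 34.9 CPM, mostly Cpa3, with Mcpt4, Fcer1a, Prss34 and Tpsb2 at 0. Cma1 gave 58 UMIs in 1 HSA+ cell and none in HSA- cells. NK and innate lymphoid markers summed to 942 and 882 CPM, with Ncr1, Eomes and Tbx21 at 0 and Klrd1 the only one of 5 measured past 1.5-fold. B cell markers summed to 67.9 and 71.0 CPM with Pax5 and Ms4a1 at 0. Erythroid markers summed to 229 and 214 CPM, with Car2 at 176 and 189 CPM, and gamma delta T-cell markers to 23.7 and 22.9 CPM. Later thymocyte markers summed to 122 and 120 CPM, mostly Arpp21 at 110 CPM in both. Thymic epithelial markers summed to 21.7 and 23.9 CPM, mostly Ccl25. The early progenitor markers of the sorts (Flt3, Kit, Cd44, Notch1, Dntt, Lmo2, Lyl1, Mef2c, Bcl11a and Spi1) stood at 78.5 CPM or more in both sorts. What part cells of other types have in the results was not tested beyond the settings given.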

How the data were processed

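RNA of single thymus cells was captured by droplets (Chromium v3), and the reads were processed by the authors with Cell Ranger 3.0 on mm10, per the submitters' processing notes. The deposited matrix holds raw UMI counts for 27998 genes and 8293 barcodes, and the deposited hashtag table holds counts per tag. All 8293 barcodes are shared by the matrix, the hashtag table and the authors' assignment, which left 345 unassigned. The rule of that assignment is not stated in the sources used here. The assigned hashtag was the most abundant in every kept cell. Doublets were not called, and doublets of 1 sort cannot be seen in the hashtags.

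Counts were summed per sort over the kept cells and scaled to CPM (Python 3.11.15, numpy 2.4.6, pandas 2.3.3, scipy 1.17.1). With 1 sort per group there is no test. The size rule, the intervals and the minimum of 5 CPM for list members are given with the results. Shares were taken after thinning to 3000 UMIs. Named genes were up to 12 of the largest ratios in each direction (12 higher and 9 lower) without predicted, mitochondrial, ribosomal protein and rule genes, the gate genes, and list members past 1.5-fold or leading their list. The cells, rule and 28 lists were chosen with earlier results of these data known. Identifiers were matched to GENCODE M21 (27645 of 27998), and promoters came from RefSeq (GRCm38.p6). The values of 1 named gene are not reported here. The calling and interval code was tested on simulated data.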

Additional observations from a re-analysis of the deposited data

How the results depend on the processing

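With 17 genes higher and 10 lower as the base, edgeR's TMM and DESeq2's size factors left both counts at 17 and 10. The counts changed by over 1.5 times as follows. Without the limit on mitotic genes 130 were higher. With no mitotic UMI among 3000 it was 30. In cells with none of the 6 granulocyte genes (31 HSA+ and 186 HSA- cells) the counts were 827 and 501, in cells under the median S phase share 34 and 40, and without cells holding 2 or more markers of another type (189 and 384 cells left) 31 and 32. With each cell thinned to 3000 UMIs they were 139 and 135. Equal weight for each cell gave 26 higher, a level of 10 CPM 34 and 25, and a level of 50 CPM 5 and 5. At 2-fold they were 6 and 0. The settings with fewer cells or UMIs have wider counting error by construction, and for the others the cause was not tested.

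Of 489 ratios of named genes under the alternatives, 402 stayed within the counting interval, 77 moved beyond it and 10, of genes counted as higher or lower, turned. Kit and Bcl11b, whose intervals include 1, also crossed 1 in 2 settings each and are not among the 10. The 10 were log2 ratios of -0.50 for Hbb-bt under the median S phase share, -0.17 for Ifi30 without the cells with both H2-Aa and H2-Eb1, -0.19 for H2-Ab1 without cells holding markers of another type, and 0.41 for Ccdc25 and 0.00 for Ifi27l2a (0.0036) in cells with no granulocyte gene. Ccl5 turned to -0.28 at a mitotic limit of 0.02%, -0.61 at 10000 to under 20000 UMIs, -0.58 without the deepest 5% of cells, -0.76 under the median S phase share and -0.33 without cells holding markers of another type. The ratio of Cd24a stayed between 1.65 and 2.19, and Ccr9 was 1.47-fold to 3.03-fold higher in HSA- cells. Of 418 list medians, 357 moved by less than 0.1. No paired analysis was possible because each group is 1 sort in 1 library.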
